A study of Mus musculus with 9 samples.

Results

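The genes described here are 49 mouse genes of central glucose metabolism: the enzymes of glycolysis from hexokinase to lactate dehydrogenase, the PFKFB regulators of phosphofructokinase, the pyruvate dehydrogenase complex and its kinases, the enzymes of the TCA (citric acid) cycle, 4 enzymes of the pentose phosphate pathway, and Hif1a, a transcription factor that many glycolytic genes respond to. They were taken by symbol, through the RefSeq accession of each array probe, from 32451 genes and accessions on a 1-colour Agilent expression array, where 67 of 39429 probes stand for them. The enzymes were listed by function, but the list was chosen with earlier results of these data known. Of the 49 genes, 46 had a probe that stood well above background on 3 or more of the 9 arrays and were tested.

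The study compared 3 populations of CD4+ T helper cells of BALB/c mice, 3 arrays each, which were taken ex vivo from spleen and lymph nodes and had no genetic change named in the labels. Th17 cells were sorted as CD3+CD4+CD45RB low cells that held captured IL-17A and no interferon gamma, Th1 cells as CD3+CD4+CD45RB low cells with interferon gamma and no IL-17A, and naive cells as CD3+CD4+CD45RB high. All 9 samples, naive included, had been stimulated for 3 hours with ionomycin at 500 ng/ml and PMA at 10 ng/ml, which mimic signals of the T cell receptor, so that no unstimulated cells were compared. RNA was extracted with either of 2 kits, and which kit served which sample, the age and the sex of the mice, and whether the replicates came from separate mice are not given in the sources used here. The p-values therefore reflect the spread among these samples alone, and this spread may be technical.

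Glycolysis splits glucose into pyruvate, lactate dehydrogenase turns pyruvate into lactate, and the pyruvate dehydrogenase complex feeds it into the TCA cycle in the mitochondrion. The pentose phosphate pathway branches off after the first step and yields NADPH and ribose for nucleotides. Naive T cells are known to rest mainly on mitochondrial oxidation, and activated effector T cells to take up more glucose and make lactate. Several steps have isoenzymes made by separate genes, which differ in tissue and in regulation.

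A level is the log2 intensity minus the 75th percentile of its array, so that 0 is the level of that percentile and 1 unit is a factor of 2. Levels compare a gene between arrays, not a gene with another gene. All differences are log2 differences of group means with their standard error (SE), and a gene was called where its p-value, adjusted over all 19082 genes tested, was under 0.05. On an array, 53.4% to 58.4% of all probes stood well above background. The 9 arrays lay on 3 slides. Slide 3 held Th17 replicate 3 alone, slide 2 held the other Th17 arrays (replicates 1 and 2) beside Th1 replicates 2 and 3, and slide 1 held Th1 replicate 1 with all naive arrays. No slide held both Th17 and naive arrays. With only 3 arrays a group, the number of arrays limits the precision. The signals of Ifng and Il17a went with the labels of all 9 arrays, and all 7 T cell markers, Cd3e and Cd4 among them, were well above background on every array. Cd8a was below background on every array, and its partner Cd8b1 lay between -4.39 and -3.86 in Th17 cells, between -4.15 and -3.86 in Th1 cells and between -0.83 and -0.56 in naive cells. Of 5 B cell markers, 4 were below background on every array. The summed signal of 4 erythroid markers, relative to the 75th percentile, ranged from 0.956 to 3.01 in Th17 cells, from 0.0504 to 1.37 in Th1 cells and from 0.058 to 0.118 in naive cells. That of 5 myeloid markers, most of it from Itgam, ranged from 20.1 to 30.8 in Th17 cells, from 25.8 to 31.8 in Th1 cells and from 17 to 17.2 in naive cells. Csf1r went the other way, from 1.27 to 1.45 in Th17, 1.18 to 1.74 in Th1 and 2.08 to 2.20 in naive cells. Cd14 was highest in Th17 cells. The summed signal of 4 dendritic cell markers, nearly all of it from Siglech, ranged from 180 to 215 in Th17 cells, from 177 to 201 in Th1 cells and from 162 to 169 in naive cells. That of 3 NK cell markers, of which Ncr1 and Klrb1c were below background on every array and the rest was Eomes, ranged from 0.0147 to 0.0628 in Th17 cells, from 0.236 to 0.512 in Th1 cells and from 0.63 to 0.965 in naive cells. That of the neutrophil markers S100a8 and S100a9 ranged from 0.0128 to 0.72 in Th17 cells, from 0.0172 to 0.743 in Th1 cells and from 0.00905 to 0.0234 in naive cells. What part any other cells had in the results was not tested.

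Most genes of glucose metabolism that changed were lower in the effector cells than in naive cells. Against naive cells, 6 of the 46 tested genes were higher in Th17 cells and 22 were lower, while 18 were not called. Among all genes tested, 24.4% were called higher and 29.7% lower in that comparison (54.2% in either direction), against 13% and 47.8% of the 46. In Th1 cells 6 were higher and 26 lower than in naive cells, and 14 were not called, which is 13% and 56.5% beside 23.5% and 30.4% of all genes (54% in either direction). The median log2 difference of the 46 genes was -0.48 in Th17 cells and -0.49 in Th1 cells, beside -0.09 over all genes in both comparisons. Between the effector populations 3 of the 46 genes were higher and 6 lower in Th17 cells than in Th1 cells, beside 8.26% and 7.53% of all genes (15.8% in either direction). Differences of at least 2-fold were called for 2 genes higher and 12 lower in Th17 than in naive cells (11.9% and 10.4% of all genes), for 3 higher and 10 lower in Th1 than in naive cells (11.6% and 9.1%), and for 0 higher and 3 lower in Th17 than in Th1 cells (3.08% and 3.32%). For each called gene of the 46 the arrays of the groups compared did not overlap. How often this held for called genes in general is not given here, so it is no trait particular to these genes. Both comparisons with naive cells use the same 3 naive arrays and are not independent. As these are bulk samples, fewer cells of a type and less RNA per cell cannot be told apart.

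Of the called genes, 5 were higher than in naive cells in both effector populations (Hk2, Suclg2, Hif1a, Pfkp and Dlat) and 21 were lower in both. None was called higher in one population and lower in the other. The matching counts over all genes are not given here. As 54.2% and 54% of all genes were called in these comparisons, which share the naive arrays, the shared calls are only a description. A further 5 genes (Taldo1, Cs, Pgk1, Eno1 and Sucla2) were called lower only in Th1 cells, Pdk3 was called higher only in Th1 cells, Eno3 was called lower only in Th17 cells, and Mdh2 was called higher only in Th17 cells; of these 8, the difference between Th17 and Th1 cells itself passed the test for Taldo1, Cs, Pdk3 and Eno3. With slide as a block in the fit, the difference of Th1 from naive cells is that within slide 1, from Th1 replicate 1. That of Th17 from Th1 cells is the difference within slide 2. The Th17 difference from naive cells rests on the Th1 arrays as a bridge between these slides. Th17 replicate 3, alone on slide 3, adds nothing to it. In this fit Th17 cells had 3 genes higher and 11 lower than naive cells (2746 higher and 2498 lower among all 19082 genes). Of the 28 calls, 14 remained. Th1 cells then had 5 higher and 20 lower, with 25 of 32 calls remaining (3755 and 4141 of all genes), and between Th17 and Th1 cells 0 were higher and 4 lower (1158 and 988 of all genes). Within slide 1, with 1 Th1 array, 4 genes were higher and 19 lower in Th1 than in naive cells (3200 and 3350 of all genes); the spread there comes from the naive arrays, and the lone Th1 array is assumed to vary like them. Within slide 2, 0 were higher and 2 lower in Th17 than in Th1 cells (728 and 692 of all genes). Every called gene kept its sign in these slide fits. The calls lost with slide as a block were, in Th17 against naive cells, those of Aldoc, Dlat, Eno3, G6pdx, Gpi1, Idh3b, Ldha, Mdh2, Ogdh, Pdha1, Pfkp, Pgam1, Suclg1 and Tpi1, in Th1 against naive cells those of Cs, Dlat, Eno1, Gpi1, Ldha, Pgk1 and Sucla2, and in Th17 against Th1 cells those of Cs, Eno3, Pfkp, Suclg2 and Taldo1.

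**Figure D1:**
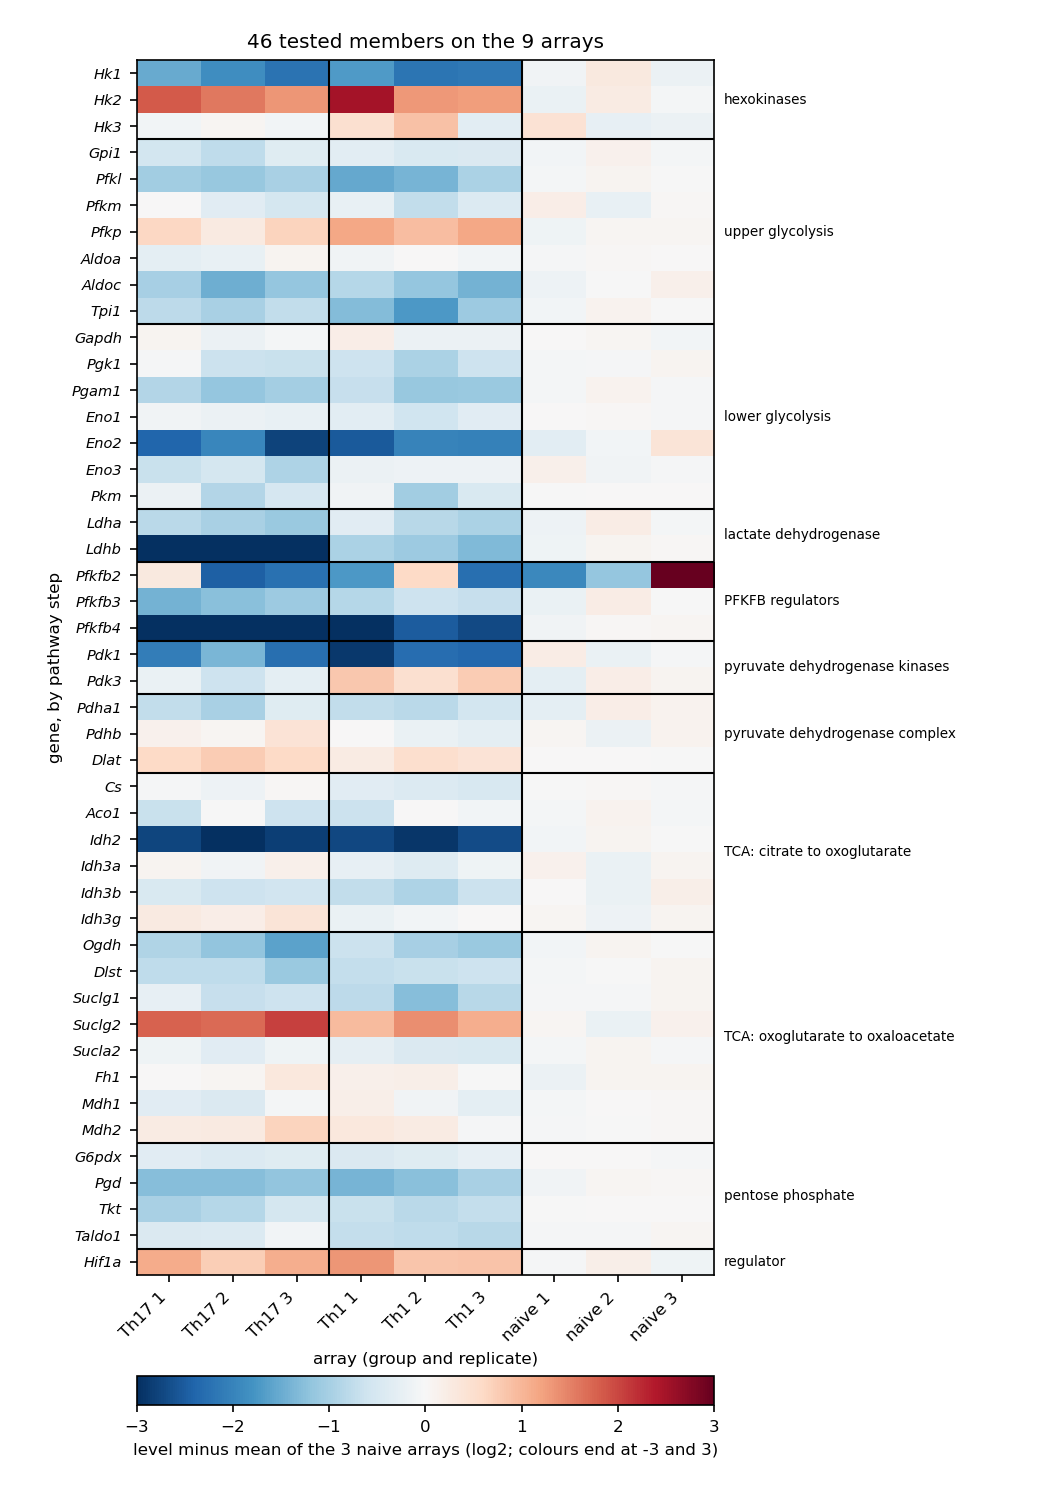
Level of each of the 46 tested genes on each of the 9 arrays, as the log2 difference from the mean of the 3 naive arrays (colour, ending at -3 and 3), with genes in rows by pathway step and arrays in columns. Hk2, Suclg2, Pfkp, Dlat and Hif1a are red on all Th17 and Th1 arrays, and Pfkfb4, Idh2, Ldhb, Eno2, Hk1 and Pdk1 are blue on all of them; Pfkfb2 is near background and scatters.

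The sequences before the start of the 4 genes with the largest mean difference from naive cells are shown because Hif1a was among the genes that were higher, and its protein binds DNA at a short core motif. For Hk2 and Suclg2, the largest rises, and for Pfkfb4 and Idh2, the largest falls, the 250 bases before the RefSeq start (build GRCm38.p6) are printed on the gene's strand, 5′ to 3′. Capitals mark each ACGTG or GCGTG, read on either strand, so CACGT and CACGC count as well. A CACGTG E-box, the site of other factors such as Myc, would hold ACGTG too, and none of the 4 windows has one.
Hk2: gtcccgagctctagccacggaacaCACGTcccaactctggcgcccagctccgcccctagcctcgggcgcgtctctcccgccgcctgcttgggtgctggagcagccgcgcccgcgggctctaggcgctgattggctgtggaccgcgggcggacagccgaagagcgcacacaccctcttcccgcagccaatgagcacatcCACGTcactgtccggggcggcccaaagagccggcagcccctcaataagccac
Suclg2: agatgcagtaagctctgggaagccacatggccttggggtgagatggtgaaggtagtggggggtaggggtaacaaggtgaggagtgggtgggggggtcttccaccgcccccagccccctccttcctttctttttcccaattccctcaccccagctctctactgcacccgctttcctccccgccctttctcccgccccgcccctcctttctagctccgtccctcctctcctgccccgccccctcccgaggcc
Pfkfb4: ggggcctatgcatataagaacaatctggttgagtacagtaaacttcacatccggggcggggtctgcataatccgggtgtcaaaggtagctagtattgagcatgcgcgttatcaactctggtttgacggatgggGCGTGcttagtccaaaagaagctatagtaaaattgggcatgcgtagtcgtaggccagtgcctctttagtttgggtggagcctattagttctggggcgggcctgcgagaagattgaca
Idh2: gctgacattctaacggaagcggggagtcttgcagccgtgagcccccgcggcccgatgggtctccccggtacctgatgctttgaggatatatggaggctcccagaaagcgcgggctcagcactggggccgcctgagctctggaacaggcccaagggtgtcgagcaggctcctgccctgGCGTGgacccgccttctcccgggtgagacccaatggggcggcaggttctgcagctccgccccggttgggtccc
The Hk2 window (chr6:82774455-82774704, minus strand) held 2 matches, the Pfkfb4 window (chr9:108991652-108991901, plus strand) and the Idh2 window (chr7:80115351-80115600, minus strand) held 1 each, and the Suclg2 window (chr6:95718847-95719096, minus strand) held 0. Over all 32851 windows of this length, 38.6% held either motif, and their median GC content was 52.4%. Of the 71 windows found for 48 of the 49 genes, 53 (74.6%) held one, at a median GC content of 60.4%. By direction, 3 of 5 windows of the genes higher in both effector populations held a match, beside 24 of 32 windows (75%) of those lower in both and 23 of 29 windows (79.3%) of the other tested genes. The motif thus stood before genes higher in both, before genes lower in both and before the other tested genes, a set that mixes 12 genes called in no comparison with 8 called against naive cells in 1 population. A match is a run of letters and not a binding site.

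The hexokinases, which trap glucose in the cell as its phosphate, moved in opposite directions. Hk2, the inducible isoenzyme, read 3.22, 2.95 and 2.71 in Th17 cells, 3.87, 2.68 and 2.64 in Th1 cells and 1.19, 1.63 and 1.33 in naive cells. All effector arrays lay above all naive arrays, and Th1 replicate 1 lay well above the other Th1 arrays. Hk2 was higher by 1.58 ± 0.32 in Th17 cells (2.99-fold, adjusted p 0.00346) and by 1.68 ± 0.32 in Th1 cells (3.21-fold, adjusted p 0.00259). Without Th1 replicate 1 the Th1 difference was 1.28. With slide as a block the differences were 2.92 in Th17 cells and 2.49 in Th1 cells. Both of these lean on that high array, the only Th1 array on the slide of the naive arrays. Hk1, the widely expressed isoenzyme, read 4.16, 3.79 and 3.43 in Th17 cells, 3.95, 3.46 and 3.52 in Th1 cells and 5.55, 5.95 and 5.48 in naive cells. Here the naive arrays were all higher. Hk1 was lower by 1.87 ± 0.22 on the log2 scale in Th17 cells (3.64-fold, adjusted p 0.000197) and by 2.02 ± 0.22 in Th1 cells (4.04-fold, adjusted p 0.000138); the Th17 value was -1.22 with slide as a block. Hk3 was near background, above it on 2 Th17, 1 Th1 and 2 naive arrays, and was not called. Between Th17 and Th1 cells the difference was -0.10 (95% interval -0.84 to 0.64) for Hk2 and 0.15 (-0.36 to 0.66) for Hk1, neither called.

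Phosphofructokinase commits sugar to glycolysis, and its isoenzymes differed in direction as well. Pfkp, the platelet-type isoenzyme, read 3.36, 3.02 and 3.43 in Th17 cells, 3.90, 3.67 and 3.92 in Th1 cells and 2.63, 2.81 and 2.80 in naive cells. The 3 populations did not overlap, with Th1 cells highest and naive cells lowest. Against naive cells Pfkp was higher by 0.52 ± 0.14 in Th17 cells (adjusted p 0.0113) and by 1.08 ± 0.14 in Th1 cells (adjusted p 0.000294), and it was lower in Th17 than in Th1 cells by 0.56 on the log2 scale (adjusted p 0.0266). A second Pfkp probe gave larger rises of 1.49 in Th17 cells and 1.73 in Th1 cells, and did not separate Th17 from Th1 cells (-0.24). In the slide-block fit the Th17 difference from naive cells (adjusted p 0.148) and that from Th1 cells (0.068) were no longer called. Pfkl, the liver-type isoenzyme, read -0.27, -0.37 and -0.20 in Th17 cells, -0.75, -0.63 and -0.18 in Th1 cells and 0.70, 0.84 and 0.76 in naive cells. It was lower than in naive cells by 1.05 ± 0.15 in Th17 cells (adjusted p 0.00053) and by 1.30 ± 0.15 in Th1 cells (adjusted p 0.000184) on the log2 scale. Pfkm, the muscle type, was not called: its differences from naive cells were -0.29 in Th17 cells and -0.45 in Th1 cells, and the Th1 difference was called lower under quantile normalization (-0.63).

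The other steps of upper glycolysis were lower or not called. Aldolase splits the doubly phosphorylated sugar into a pair of smaller ones, and Tpi1 interconverts these. Aldoa read 7.05, 7.10 and 7.42 in Th17 cells, 7.22, 7.36 and 7.26 in Th1 cells and 7.30, 7.36 and 7.35 in naive cells. These ranges overlapped, and the differences from naive cells were -0.15 (95% interval -0.41 to 0.12) in Th17 cells and -0.05 (-0.32 to 0.21) in Th1 cells. Under quantile normalization both signs turned, to 0.21 in Th17 cells, not called, and to 0.41 in Th1 cells, called higher (adjusted p 0.0182). Aldoc, the brain-type aldolase, read -2.02, -2.49 and -2.18 in Th17 cells, -1.86, -2.17 and -2.43 in Th1 cells and -1.17, -1.02 and -0.86 in naive cells. It fell by 1.21 ± 0.18 in Th17 cells and by 1.14 ± 0.18 in Th1 cells on the log2 scale (adjusted p 0.000643 and 0.000944), and the Th17 call was lost with slide as a block (adjusted p 0.1). Tpi1 read 1.16, 0.97 and 1.20 in Th17 cells, 0.64, 0.23 and 0.86 in Th1 cells and 1.85, 2.05 and 1.93 in naive cells. All effector arrays were lower, by 0.83 ± 0.16 in Th17 cells (adjusted p 0.0027) and by 1.37 ± 0.16 in Th1 cells (adjusted p 0.000204); a second probe was called in Th1 cells (-1.16) and not in Th17 cells (-0.54), and the Th17 call was lost with slide as a block (adjusted p 0.124). Gpi1, which turns the glucose phosphate into the fructose form, was lower by 0.56 in Th17 cells (adjusted p 0.00509) and by 0.40 in Th1 cells (adjusted p 0.0226) on the log2 scale. Its Th1 call was lost without Th1 replicate 2, Th1 replicate 3 or naive replicate 2, under quantile normalization and after scaling by detected probes, and both Gpi1 calls were lost with slide as a block.

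The PFKFB enzymes make and break the sugar bisphosphate that activates phosphofructokinase, and the 2 that were clearly measured were lower in both effector populations. Pfkfb4 read -4.22, -4.09 and -3.92 in Th17 cells, -3.49, -2.61 and -2.82 in Th1 cells and -0.20, -0.07 and -0.05 in naive cells. The 3 populations were fully separate, Th17 lowest. Pfkfb4 was lower than in naive cells by 3.97 ± 0.21 in Th17 cells (15.7-fold, adjusted p 2.98e-06) and by 2.87 ± 0.21 in Th1 cells (7.29-fold, adjusted p 1.61e-05) on the log2 scale, the largest differences among the 46 genes in each comparison. In the fit with slide as a block the values were -4.81 and -3.38. Pfkfb3 read 1.42, 1.56 and 1.74 in Th17 cells, 1.96, 2.20 and 2.13 in Th1 cells and 2.62, 3.05 and 2.80 in naive cells. It had the same order of populations, with differences of -1.25 ± 0.14 in Th17 cells (adjusted p 0.000149) and -0.73 ± 0.14 in Th1 cells (adjusted p 0.00272). Pfkfb2 was above background on 1 array of each population and was not called (SE 1.39).

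**Figure D2:**
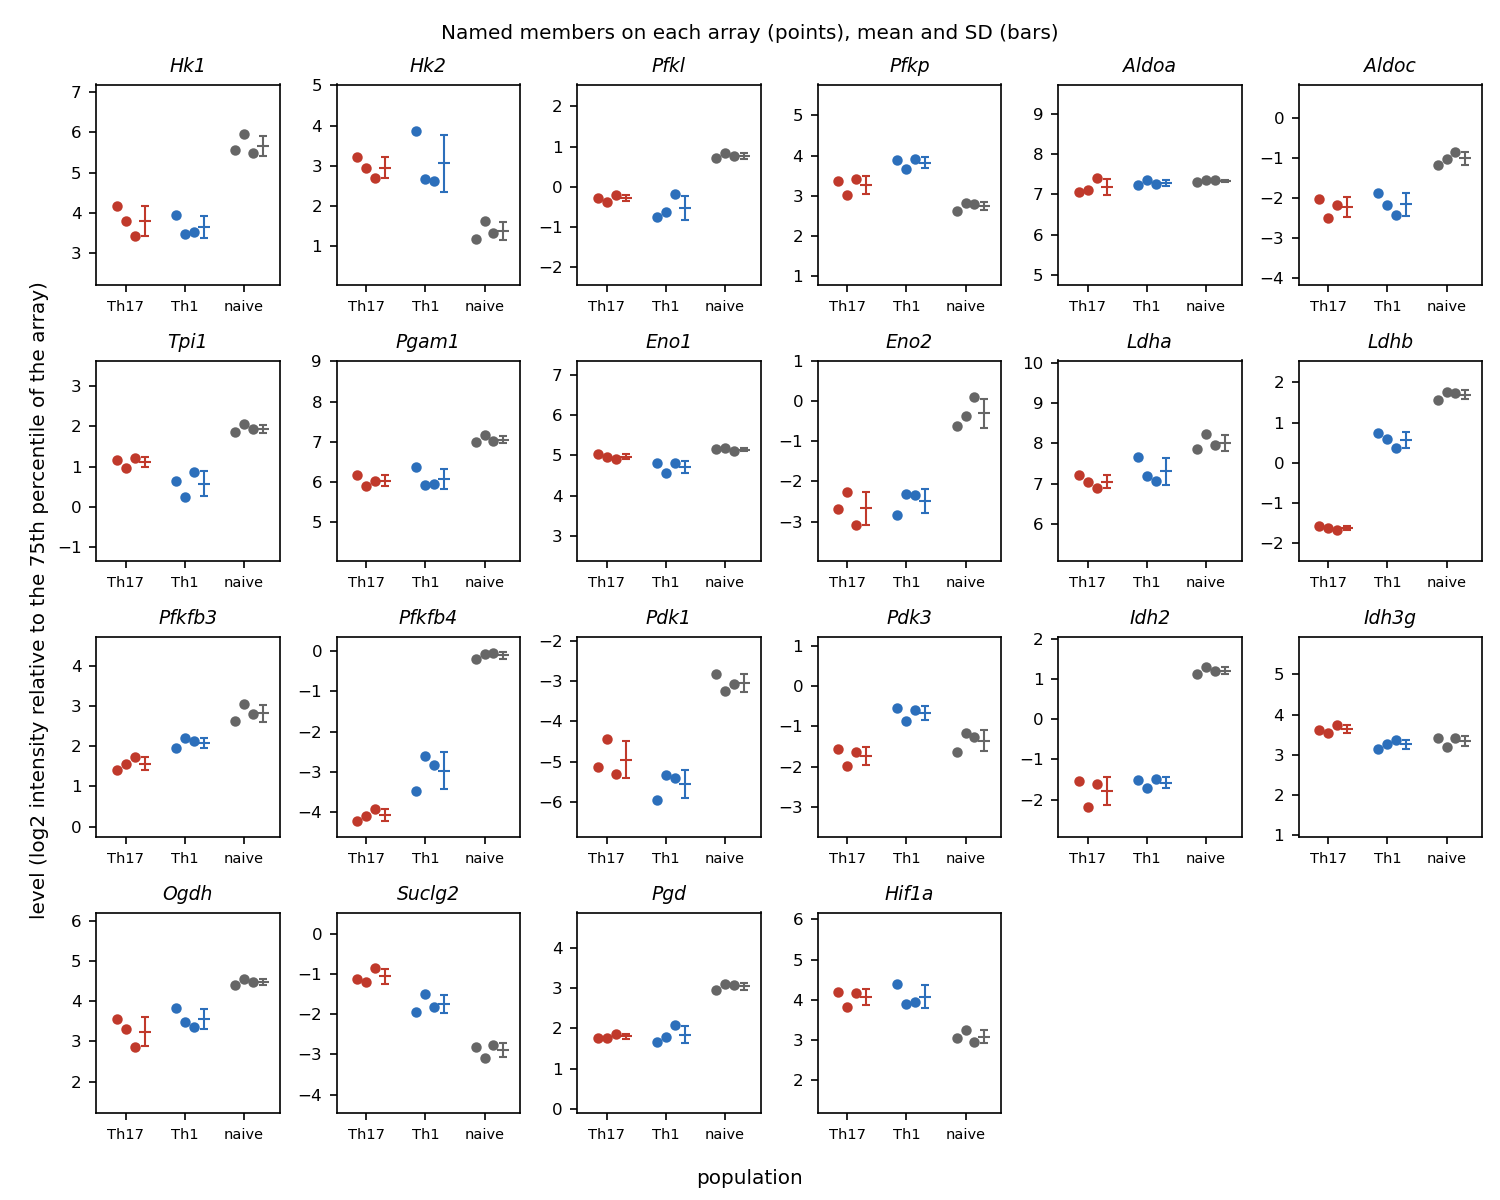
Level of each named gene on each array (points, log2 intensity minus that of the 75th percentile), with the mean and SD of each population beside the points. Panels span the same number of log2 units around different centres; Ldhb, Pfkfb4, Pfkp and Suclg2 show 3 separate populations, and Aldoa shows overlapping ones.

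In lower glycolysis no gene was called higher. Pgam1, the phosphoglycerate mutase, read 6.18, 5.89 and 6.04 in Th17 cells, 6.37, 5.92 and 5.95 in Th1 cells and 7.0, 7.16 and 7.01 in naive cells. It was lower than in naive cells by 1.02 ± 0.14 in Th17 cells (adjusted p 0.000521) and by 0.98 ± 0.14 in Th1 cells (adjusted p 0.000691), and the Th17 call was lost with slide as a block (adjusted p 0.0831). Among the enolases, which make phosphoenolpyruvate, the neuronal form Eno2 read -2.68, -2.26 and -3.07 in Th17 cells, -2.84, -2.31 and -2.33 in Th1 cells and -0.63, -0.38 and 0.09 in naive cells. Its naive arrays stood far above all others, and Eno2 fell by 2.36 ± 0.26 in Th17 cells (5.14-fold, adjusted p 0.000136) and by 2.18 ± 0.26 in Th1 cells (4.54-fold, adjusted p 0.000227) on the log2 scale. Eno1, the common form, read 5.04, 4.95 and 4.91 in Th17 cells, 4.82, 4.55 and 4.80 in Th1 cells and 5.15, 5.17 and 5.10 in naive cells. It was lower by 0.42 ± 0.10 in Th1 cells (adjusted p 0.00831), a call lost under quantile normalization, after scaling by detected probes and with slide as a block, and its Th17 difference of -0.17 was not called. The muscle form Eno3 was lower by 0.70 in Th17 cells (adjusted p 0.00159), with a Th1 difference of -0.16 that was not called. Pgk1, which makes ATP from bisphosphoglycerate, fell by 0.73 in Th1 cells (adjusted p 0.00973), a call lost under quantile normalization and with slide as a block. Gapdh, often used as a stable reference gene, differed from naive cells by -0.04 in Th17 cells (95% interval -0.35 to 0.26) and by -0.05 in Th1 cells (-0.35 to 0.25). Of its 7 probes, 1 was called lower in each effector population, and under quantile normalization the difference was 0.22 in Th17 cells, not called, and 0.33 in Th1 cells, called higher; both signs also turned after scaling by detected probes (0.04 and 0.10) and with slide as a block (0.34 and 0.21, not called). Pkm, the pyruvate kinase of T cells, differed by -0.52 in Th17 cells and -0.54 in Th1 cells, neither called. With the slide block these were 0.11, with the sign turned, and -0.11, and 1 of 10 alternatives called the Th17 difference and 1 of 11 the Th1 difference.

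Lactate dehydrogenase is built from subunits of 2 kinds, and both of their genes were lower in effector cells. Ldhb, the heart-type subunit, read -1.57, -1.61 and -1.68 in Th17 cells, 0.74, 0.60 and 0.36 in Th1 cells and 1.56, 1.77 and 1.74 in naive cells. These 3 populations were apart by far more than the spread within each. Ldhb was lower than in naive cells by 3.31 ± 0.12 in Th17 cells (9.92-fold, adjusted p 7.27e-07) and by 1.12 ± 0.12 in Th1 cells (2.18-fold, adjusted p 0.000118), and lower in Th17 than in Th1 cells by 2.18 ± 0.12 on the log2 scale (4.55-fold, adjusted p 1.61e-05). Within slide 2 that last difference was -2.07 (adjusted p 0.00618). Ldha, the muscle-type subunit and a known HIF1 target, read 7.21, 7.05 and 6.89 in Th17 cells, 7.67, 7.18 and 7.05 in Th1 cells and 7.86, 8.23 and 7.95 in naive cells. The naive arrays were again highest. Ldha fell by 0.97 ± 0.18 in Th17 cells (adjusted p 0.00231) and by 0.71 ± 0.18 in Th1 cells (adjusted p 0.0104), and its other probes were called lower as well. Both calls were lost with slide as a block (-0.34 in Th17 cells and -0.35 in Th1 cells), and the Th1 call was lost under quantile normalization (-0.22).

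Pyruvate dehydrogenase kinases switch the pyruvate dehydrogenase complex off. Pdk1 read -5.12, -4.43 and -5.30 in Th17 cells, -5.95, -5.33 and -5.40 in Th1 cells and -2.82, -3.25 and -3.08 in naive cells. It was well above background on 2 of 3 Th17 arrays, on 0 of 3 Th1 arrays and on all naive arrays, so that its Th1 level is only a bound. The difference from naive cells was -1.90 ± 0.26 in Th17 cells (adjusted p 0.000417). In Th1 cells it was -2.51 ± 0.26 (5.69-fold lower, adjusted p 9.91e-05), from Th1 signals not well above background. Raising each Th1 signal to at least the dimmest signal well above background on its array gave the same 5.69-fold. That figure carries the SE given here and is not a lower limit. Pdk3 went the other way in Th1 cells, reading -1.55, -1.99 and -1.65 in Th17 cells, -0.54, -0.86 and -0.60 in Th1 cells and -1.64, -1.15 and -1.27 in naive cells. The Th1 arrays stood above all others, while Th17 and naive arrays overlapped. Against naive cells Pdk3 was higher by 0.69 ± 0.17 in Th1 cells (adjusted p 0.00946). In Th17 cells it was lower than in Th1 cells by 1.06 ± 0.17 on the log2 scale (adjusted p 0.0046). The Th17 difference from naive cells was -0.37 and not called. Within slide 1, with its 1 Th1 array, the Th1 value was 0.82 (adjusted p 0.0624), and within slide 2 the Th17 difference from Th1 was -1.04 (adjusted p 0.0625). Of the complex itself, Pdha1, its catalytic subunit, was lower by 0.69 in Th17 cells (adjusted p 0.0135) and by 0.70 in Th1 cells (adjusted p 0.0123) on the log2 scale. Dlat, the acetyl transferase core, was higher by 0.65 in Th17 cells (adjusted p 0.000676) and by 0.38 in Th1 cells (adjusted p 0.0101). Pdhb was not called, at 0.20 in Th17 cells and -0.16 in Th1 cells. Both Dlat calls and the Th17 call of Pdha1 were lost with slide as a block.

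In the TCA cycle, 2 of 14 tested enzymes were higher and 5 lower in Th17 cells than in naive cells, and 1 was higher and 7 lower in Th1 cells. The Th17 shares of 14.3% and 35.7% stand beside 24.4% and 29.7% of all genes, and the Th1 shares of 7.14% and 50% beside 23.5% and 30.4%. The largest fall was that of Idh2, the mitochondrial NADP-dependent isocitrate dehydrogenase, which read -1.53, -2.18 and -1.62 in Th17 cells, -1.52, -1.72 and -1.48 in Th1 cells and 1.12, 1.30 and 1.21 in naive cells. Effector and naive arrays were widely apart, and Th17 and Th1 arrays overlapped. Idh2 fell by 2.99 ± 0.17 in Th17 cells (7.92-fold, adjusted p 4.46e-06) and by 2.78 ± 0.17 in Th1 cells (6.88-fold, adjusted p 6.46e-06) on the log2 scale. The NAD-dependent isocitrate dehydrogenase is built from the products of 3 further genes, and of these only Idh3b was called. Idh3g, a regulatory subunit, read 3.62, 3.55 and 3.74 in Th17 cells, 3.15, 3.26 and 3.37 in Th1 cells and 3.42, 3.21 and 3.43 in naive cells. Its Th17 arrays lay above all others, by 0.28 over naive cells (adjusted p 0.0551) and 0.38 over Th1 cells (adjusted p 0.0505), which missed the threshold. Of 10 alternatives, 3 called the difference from naive cells, among them quantile normalization (adjusted p 0.0436) and scaling by detected probes (0.0301). With slide as a block that difference was 0.07 (adjusted p 0.815). Idh3b was lower by 0.55 in Th17 cells (adjusted p 0.00669) and by 0.77 in Th1 cells (adjusted p 0.00121), and Idh3a was not called. Cs, the citrate synthase, was lower in Th1 cells by 0.41 (adjusted p 0.0054), with a difference of -0.05 in Th17 cells that was not called. Aco1, the cytosolic aconitase, was not called.

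The succinyl-CoA synthetase genes separated. Suclg2, the beta subunit of the GTP-forming enzyme, read -1.13, -1.21 and -0.85 in Th17 cells, -1.95, -1.50 and -1.81 in Th1 cells and -2.83, -3.09 and -2.76 in naive cells. The populations did not overlap, Th17 highest and naive lowest. Suclg2 was higher than in naive cells by 1.84 ± 0.16 in Th17 cells (3.57-fold, adjusted p 3.36e-05) and by 1.14 ± 0.16 in Th1 cells (2.21-fold, adjusted p 0.000467), and higher in Th17 than in Th1 cells by 0.69 ± 0.16 (adjusted p 0.02). Suclg1, the alpha subunit shared by both enzymes, was instead lower by 0.51 in Th17 cells (adjusted p 0.0264) and by 0.96 in Th1 cells (adjusted p 0.00134) on the log2 scale; its Th17 call was lost after scaling by detected probes (adjusted p 0.0506). Sucla2, the beta subunit of the ATP-forming enzyme, was lower by 0.38 in Th1 cells (adjusted p 0.0123; 0.0537 after scaling by detected probes) and was not called in Th17 cells (-0.20). Ogdh, the first subunit of the oxoglutarate dehydrogenase complex, read 3.56, 3.30 and 2.86 in Th17 cells, 3.84, 3.47 and 3.36 in Th1 cells and 4.39, 4.55 and 4.47 in naive cells on its brightest probe. That probe fell by 1.23 ± 0.19 in Th17 cells (adjusted p 0.000881) and by 0.92 ± 0.19 in Th1 cells (adjusted p 0.00415), and its Th17 value was -0.62 (adjusted p 0.0641) with slide as a block. The other Ogdh probes were not called, at 0.19 and 0.08 in Th17 cells and at -0.13 and -0.04 in Th1 cells, so the change of this gene depends on the probe. Dlst, of the same complex, was lower by 0.88 in Th17 cells (adjusted p 0.000347) and by 0.67 in Th1 cells (adjusted p 0.00149). Mdh2, the mitochondrial malate dehydrogenase, was higher by 0.40 in Th17 cells (adjusted p 0.0481), a call lost with slide as a block, and its Th1 difference of 0.18 was not called, though it was under quantile normalization (0.51). Fh1 and Mdh1 were not called.

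**Figure D3:**
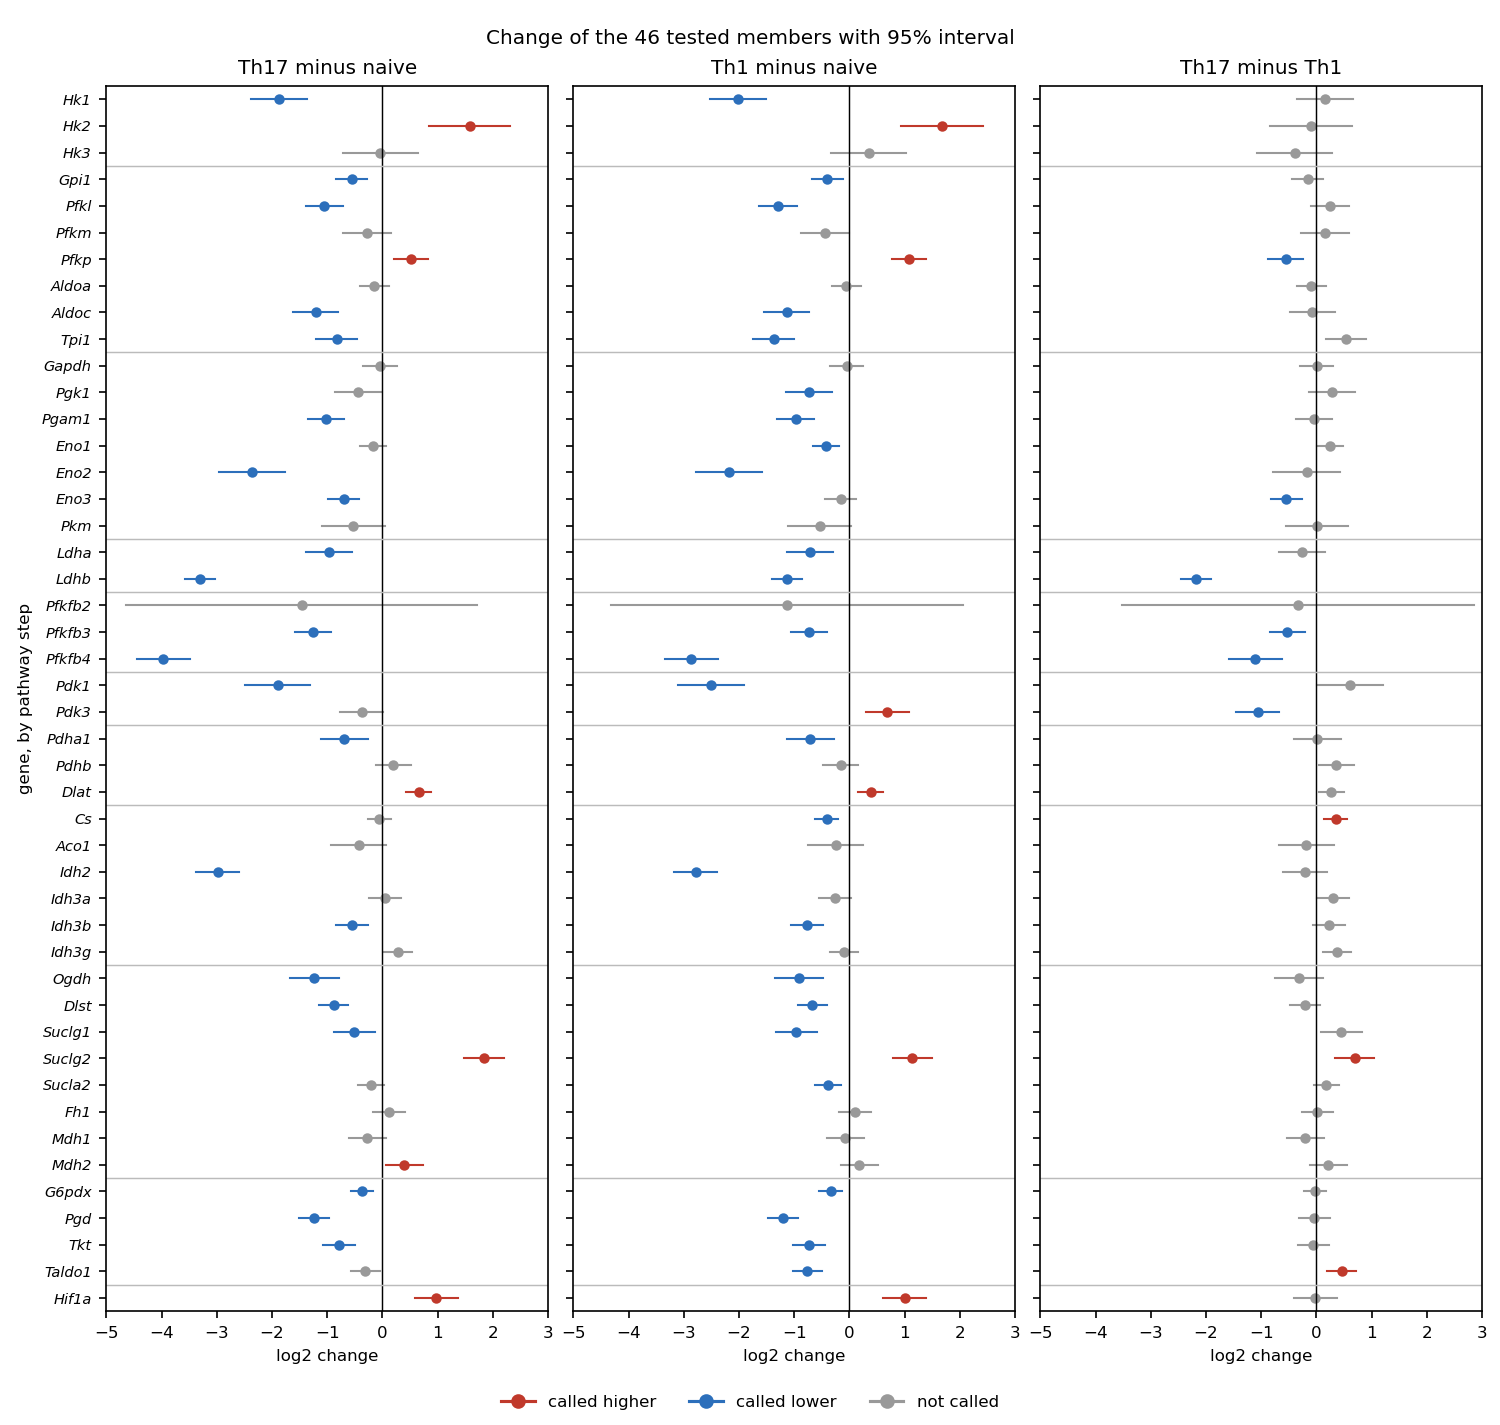
Log2 difference of each of the 46 tested genes (points) with its 95% interval (lines) between Th17 and naive cells, between Th1 and naive cells and between Th17 and Th1 cells, by pathway step. Red marks genes called higher, blue genes called lower and grey genes not called; 22, 26 and 6 genes are blue in the 3 panels.

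All 4 pentose phosphate enzymes were lower in Th1 cells than in naive cells, and 3 of them in Th17 cells. Pgd, which makes NADPH and ribulose phosphate in the oxidative branch, read 1.77, 1.77 and 1.87 in Th17 cells, 1.66, 1.79 and 2.07 in Th1 cells and 2.94, 3.11 and 3.08 in naive cells. Th17 and Th1 arrays overlapped, and all lay below the naive arrays. Pgd fell by 1.24 ± 0.12 in Th17 cells (2.36-fold, adjusted p 7.17e-05) and by 1.20 ± 0.12 in Th1 cells (2.30-fold, adjusted p 9.18e-05) on the log2 scale. Tkt, the transketolase of the branch that returns sugars to glycolysis, fell by 0.79 in Th17 cells (adjusted p 0.000916) and by 0.73 in Th1 cells (adjusted p 0.00138). G6pdx, the entry enzyme of the pathway, fell by 0.37 in Th17 cells (adjusted p 0.0075) and by 0.34 in Th1 cells (adjusted p 0.0111), and its Th1 call was lost after scaling by detected probes. Taldo1, the transaldolase, was lower in Th1 cells by 0.76 (adjusted p 0.000775) and differed by -0.31 in Th17 cells (adjusted p 0.0513), which 3 of 10 alternatives called lower.

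Hif1a encodes the oxygen-regulated subunit of HIF1, whose protein is broken down when oxygen is present, so its RNA need not follow its activity. The probe read 4.18, 3.83 and 4.17 in Th17 cells, 4.40, 3.91 and 3.94 in Th1 cells and 3.04, 3.26 and 2.95 in naive cells. All effector arrays lay above all naive arrays, and Th17 and Th1 arrays overlapped. Hif1a was higher by 0.98 ± 0.17 in Th17 cells (1.97-fold, adjusted p 0.00149) and by 1.0 ± 0.17 in Th1 cells (2-fold, adjusted p 0.00136), with -0.02 (95% interval -0.41 to 0.37) between Th17 and Th1 cells. Of 19 further HIF1 regulators and targets, all tested, 5 were higher and 7 lower in Th17 cells than in naive cells, and 2 were higher and 8 lower in Th1 cells. The shares were 26.3% higher and 36.8% lower in Th17 cells, beside 24.4% and 29.7% of all genes, and 42.1% lower in Th1 cells, beside 30.4%. P4ha1, a collagen prolyl hydroxylase, fell by 1.91 in Th17 cells (adjusted p 8.8e-06) and by 1.97 in Th1 cells (adjusted p 7.55e-06). Bnip3, a mitophagy receptor, fell by 2.55 in Th17 cells (adjusted p 9.44e-06) and by 2.65 in Th1 cells (adjusted p 7.95e-06), and Ankrd37 by 2.69 and 2.51 (adjusted p 1.16e-05 and 1.74e-05). Egln3, a prolyl hydroxylase that marks HIF for breakdown and is itself a HIF target, went the other way, at 3.35 ± 0.38 higher in Th17 cells (adjusted p 0.000149). Its Th1 arrays, at 2.10, 0.77 and 0.87, also lay above the naive arrays, at -1.27, -2.01 and -2.10. The median of the 19 genes was -0.26 in Th17 cells and -0.25 in Th1 cells, beside -0.09 over all genes. Between Th17 and Th1 cells 4 of the 19 were higher in Th17 cells and 0 lower (21.1% and 0%, beside 8.26% and 7.53% of all genes). The 4 were Ndrg1 by 1.42 (adjusted p 0.000368), the stress gene Ddit4 by 1.98 (0.00277), the oxidoreductase Ero1a by 1.22 (0.0046) and Epas1, which encodes HIF2 alpha, by 0.45 (0.014). These 4 were also called with slide as a block, and 2 of the 19, Ndrg1 and Ero1a, within slide 2.

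**Figure D4:**
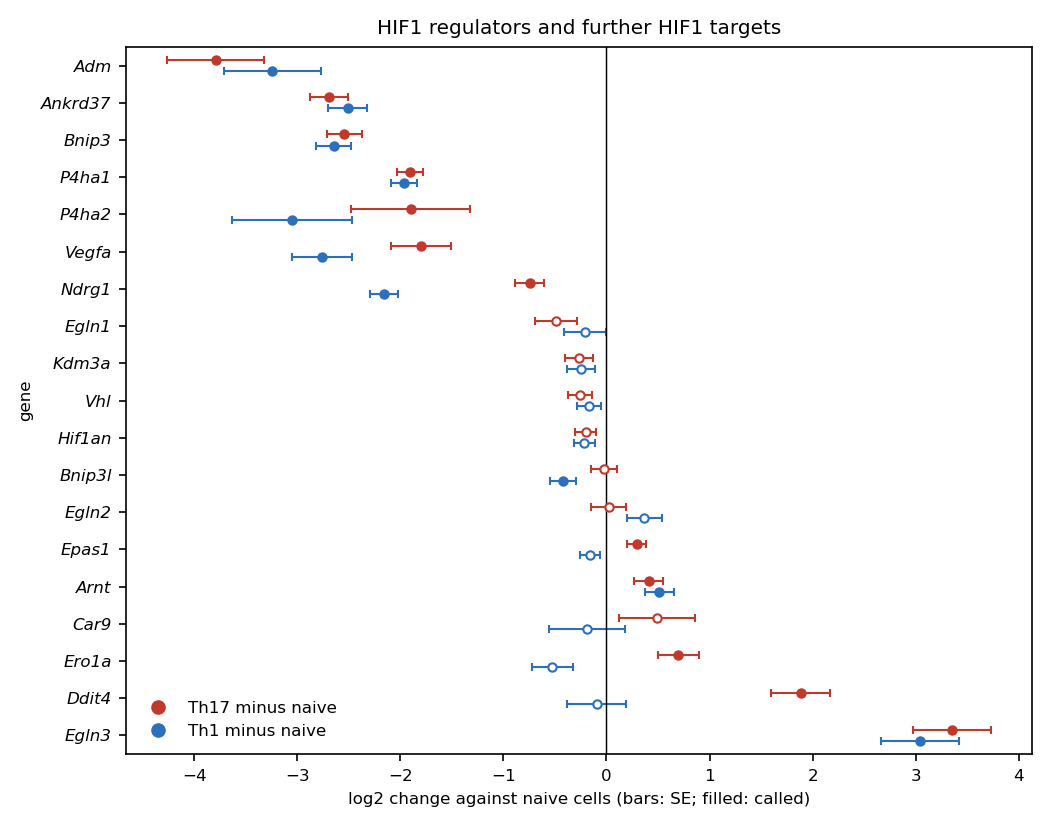
Log2 difference from naive cells (points, with SE) of the 19 HIF1 regulators and further targets, for Th17 cells (red) and Th1 cells (blue), with called genes filled. Egln3 is to the right of 0 and Adm, Ankrd37, Bnip3, P4ha1, P4ha2, Vegfa and Ndrg1 are to the left of 0 in both populations.

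Of 13 tested transporters of glucose and its products, 4 were higher and 4 lower in Th17 cells than in naive cells (30.8% each, beside 24.4% and 29.7% of all genes), and 2 were higher and 6 lower in Th1 cells (15.4% and 46.2%, beside 23.5% and 30.4%). Slc2a3, the high-affinity glucose transporter GLUT3, fell by 2.41 in Th17 cells (adjusted p 1.4e-05) and by 2.32 in Th1 cells (adjusted p 1.8e-05) on the log2 scale, and Slc2a8 fell by 1.97 and 1.91 (adjusted p 2.86e-05 and 3.79e-05). Slc25a1, the mitochondrial citrate carrier, fell by 1.47 in Th1 cells (adjusted p 5.52e-05). Its Th17 arrays, at 0.85, 0.58 and 0.42, also lay below the naive arrays, at 2.19, 2.06 and 2.01. Slc25a10, the mitochondrial dicarboxylate carrier, was not well above background on any effector array and was well above it on all naive arrays. Slc2a6, a glucose transporter family member of intracellular membranes, was instead higher in Th17 cells, by 4.41 ± 0.24 over naive cells (adjusted p 3.26e-06), with only 1 of the 3 naive arrays above background, and by 3.42 ± 0.24 over Th1 cells (adjusted p 6.07e-05). The lactate exporter Slc16a3 was higher in Th17 than in Th1 cells by 1.20 (adjusted p 0.000543), and Mpc1, of the mitochondrial pyruvate carrier, by 0.64 (adjusted p 0.00544). Slc2a1, the glucose transporter GLUT1 known from activated T cells, was not called, at -0.23 in Th17 cells and 0.07 in Th1 cells.

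The serine branch, which draws on a glycolytic intermediate to make serine and folate-bound carbon units, was mostly higher in Th17 cells. Of its 8 genes, 6 were higher in Th17 than in naive cells (75%, beside 24.4% of all genes) and 6 were higher than in Th1 cells (75%, beside 8.26%), while 1 was higher in Th1 cells against naive cells, and 0 were lower in any comparison. The median difference of the 8 was 0.50 in Th17 cells and -0.01 in Th1 cells against naive cells, and 0.64 between Th17 and Th1 cells. Like the other lists, this one was chosen with earlier results of these data known, so its shares are a description and not a test. Psph, the last enzyme of serine synthesis, was higher in Th17 than in naive cells by 1.12 (adjusted p 0.000104) and than in Th1 cells by 1.06 (adjusted p 0.000724). Shmt2, the mitochondrial hydroxymethyltransferase, was higher than in naive cells by 0.89 (adjusted p 9.3e-05) and than in Th1 cells by 0.82 (adjusted p 0.000705). Mthfd2 was higher than in naive cells by 0.58 (adjusted p 0.00095) and than in Th1 cells by 0.71 (adjusted p 0.00145), and Mthfd1l by 1.23 (adjusted p 3.28e-05) and 0.66 (adjusted p 0.00413). With slide as a block, 4 of the 8 were higher in Th17 cells in either comparison, and within slide 2, 3 were higher than in Th1 cells.

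Among 23 tested further genes around pyruvate dehydrogenase and the TCA cycle, 9 were higher and 8 lower in Th17 cells than in naive cells, 7 were higher and 9 lower in Th1 cells, and 7 were higher and 0 lower in Th17 than in Th1 cells. These are 39.1% and 34.8% beside 24.4% and 29.7% of all genes, 30.4% and 39.1% beside 23.5% and 30.4%, and 30.4% and 0% beside 8.26% and 7.53%. Gls2, a glutaminase, was higher by 3.02 in Th17 cells (adjusted p 1.54e-05) and by 2.84 in Th1 cells (adjusted p 2.29e-05). Sdha, the catalytic subunit of succinate dehydrogenase, was higher by 1.02 and 0.96 (adjusted p 6.3e-05 and 9.45e-05), while its small partner Sdhd fell by 0.87 and the assembly factor Sdhaf1 by 1.51 in Th1 cells (adjusted p 0.000497 and 0.000176). The Th17 arrays of Sdhd (3.59, 3.44 and 3.82) and of Sdhaf1 (2.17, 2.59 and 2.53) also lay below all naive arrays. Acly, which cleaves citrate in the cytosol to give acetyl-CoA, was higher in Th17 than in Th1 cells by 1.10 ± 0.09 (adjusted p 0.000142), and within slide 2 by 1.09 (adjusted p 0.017). Got1, a transaminase of the malate and aspartate shuttle, was higher in Th17 cells by 1.38 over naive cells (adjusted p 3.97e-05) and by 0.62 over Th1 cells (adjusted p 0.011). The slide-block counts were 6 higher and 1 lower in Th17 cells, 6 higher and 5 lower in Th1 cells against naive cells, and 3 higher and 0 lower between Th17 and Th1 cells.

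Of 18 other tested genes of glycolysis and glycogen, 4 were higher and 9 lower in Th17 than in naive cells (22.2% and 50%). In Th1 cells 4 were higher and 8 lower (22.2% and 44.4%). Of 8 other pentose phosphate genes, 1 was higher and 4 lower in Th17 cells (12.5% and 50%), and 2 and 4 in Th1 cells (25% and 50%). The shares of all genes were 24.4% and 29.7% in Th17 cells and 23.5% and 30.4% in Th1 cells. With slide as a block the list counts were 2 and 2, 2 and 3, 1 and 0, and 1 and 2 in the same order. That fit called 2746 higher and 2498 lower of all 19082 genes in Th17 cells, and 3755 and 4141 in Th1 cells. Pfkfb1, a further PFKFB gene, was higher by 2.41 in Th1 cells (adjusted p 0.000191), with all 3 Th1 arrays and only 1 of the 3 naive arrays above background. Its Th17 arrays, at -3.37, -3.33 and -4.10, also lay above the naive arrays, at -5.03, -5.83 and -5.22. Pygb, a glycogen phosphorylase, fell by 1.22 in Th17 cells and by 1.18 in Th1 cells (adjusted p 0.000621 and 0.000785). Rbks, the ribokinase, rose by 2.29 in Th17 cells and by 2.09 in Th1 cells (adjusted p 2.68e-05 and 4.74e-05). Among 15 tested transcriptional regulators of glucose use, 2 were higher and 7 lower in Th17 cells and 2 were higher and 6 lower in Th1 cells than in naive cells (13.3% and 46.7% in Th17 cells, 13.3% and 40% in Th1 cells, beside the shares of all genes given above). With the slide block, 0 were higher and 3 lower in Th17 cells and 1 was higher and 3 lower in Th1 cells, and the 3 lower ones were Ppargc1b, Esrra and Tfam in both. Ppargc1b, a transcriptional coactivator, fell by 1.98 in Th17 cells and by 1.22 in Th1 cells (adjusted p 2.48e-05 and 0.000363), and Esrra, a nuclear receptor it works with, by 0.99 and 0.85 (adjusted p 0.000248 and 0.000571). Tfam, which keeps and transcribes mitochondrial DNA, fell by 0.56 in Th1 cells (adjusted p 0.00173). Its Th17 arrays, at 2.61, 2.58 and 2.68, also lay below the naive arrays, at 3.08, 3.30 and 3.31.

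Between the effector populations 9 of the 46 genes were called, in a comparison where 15.8% of all genes were. Ldhb, Pfkfb4, Pdk3, Pfkp, Eno3 and Pfkfb3 were lower in Th17 cells, and Suclg2, Taldo1 and Cs were higher. Pfkfb4 was lower by 1.10 ± 0.21 (adjusted p 0.00948), Eno3 by 0.54 ± 0.12 (adjusted p 0.0196) and Pfkfb3 by 0.52 ± 0.14 (adjusted p 0.0397) on the log2 scale, while Taldo1 was higher by 0.46 ± 0.12 (adjusted p 0.0317) and Cs by 0.35 ± 0.09 (adjusted p 0.0329). When each array was left out in turn, only Ldhb, Pfkfb4 and Pdk3 of these 9 were called every time. The count of higher genes dropped to 0 without Th17 replicate 3 or without Th1 replicate 1, and to 1 without Th1 replicate 2 or Th1 replicate 3. The count of lower genes dropped to 3 without Th1 replicate 1 or Th1 replicate 3 and to 4 without Th17 replicate 2 or Th1 replicate 2. Against naive cells the calls were steadier, with 25 of 28 called every time in Th17 cells (all but Pdha1, Suclg1 and Mdh2) and 31 of 32 in Th1 cells (all but Gpi1).

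Where several probes stand for a gene, most went the same way against naive cells. Of the 10 genes with more than 1 probe, 9 had more than 1 above background; both Hk1 probes and both Pfkfb3 probes, and all 3 probes of Gpi1 and of Ldha, were called lower in both effector populations. The exceptions were Ogdh, Tpi1 in Th17 cells and Gapdh, given above. Pfkfb4 had a second probe that was above background on 0 arrays. Pdk2 and Pdk4, the other pyruvate dehydrogenase kinases, were not well above background on any array, and Idh1, the cytosolic isocitrate dehydrogenase, was so on 1 naive array, so that these 3 genes were not tested.

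**Figure D5:**
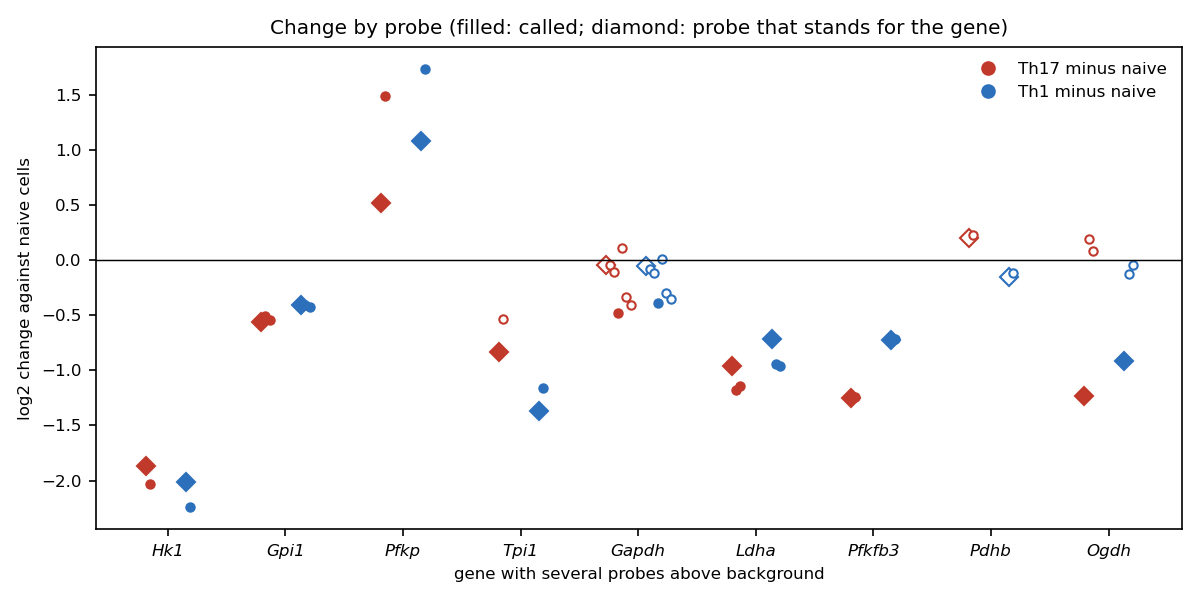
Log2 difference from naive cells for each probe of the 9 genes with several probes above background, for Th17 cells (red) and Th1 cells (blue), filled where the probe was called and as a diamond where it stands for the gene. The Ogdh diamonds lie below the open circles of its other probes, and both Pfkp probes lie above 0 in both populations.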

How the data were processed

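Total RNA (0.5 µg a sample) was labelled with Cy3 and hybridised to Agilent arrays. Each of the 9 arrays has 44397 spots, and the scanner files hold processed intensity values per spot, deposited by the authors and made with Agilent Feature Extraction 10.7.3.1 per the file headers (10.5 per the submitters' processing notes). The deposited series table holds log2 values that match log2 processed signal minus the 75th percentile of each array up to one constant per probe and per array (largest gap 1.91e-06), and its baseline is not stated; its array medians ran from -0.0962 to 0.284. Here, control and outlier spots were removed, the array's 75th percentile was subtracted from log2 intensities, and each probe took the mean of its spots. Probes well above background on at least 3 of 9 arrays were kept (23322), and the brightest stood for its gene. Symbols came through unversioned RefSeq accessions (27234 of 39429 probes matched); the array's genome build differs from that of the promoter sequences, so only names and RefSeq windows of GRCm38.p6 were used.

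All 3 populations entered 1 limma fit (3.58.1, R 4.3.3; lmFit and eBayes), with Benjamini-Hochberg adjustment over 19082 genes; the design had no block. The fit was tested on simulated data. The genes and lists were chosen with earlier results of these data known. Named with values on every array were genes called with a log2 difference of at least 1 and groups that do not overlap in any comparison, Hif1a, and the isoenzyme with the brightest probe of each family; from each further list, up to 4 called genes with the smallest p in a comparison; Slc2a1 was added after its values were seen. The labels do not say whether shared replicate numbers pair arrays. Residuals of same-numbered arrays correlated at -0.00658 to 0.175 over 9 pairs, those of other pairs at -0.197 to 0.0647. The same-numbered range lies higher and the ranges overlap, so pairing was neither shown nor excluded. Alternatives were background correction, normalization, filter, probe choice, slide, replicate block, fold threshold, the authors' table and leaving out each array.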

Additional observations from a re-analysis of the deposited data

Results flagged for a closer look

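For 9 of the 46 tested genes the difference from naive cells was not the same in Th17 and in Th1 cells, by the test of the difference itself in limma (Th17 minus Th1, adjusted over all 19082 genes; both differences share the naive arrays, which drop out). Lower in Th17 cells were Ldhb (-2.18), Pfkfb4 (-1.10), Pdk3 (-1.06), Pfkp (-0.56), Eno3 (-0.54) and Pfkfb3 (-0.52) on the log2 scale. Higher in Th17 cells were Suclg2 (0.69), Taldo1 (0.46) and Cs (0.35). Among all genes tested 15.8% were called in this comparison. Populations of 3 arrays were not searched for single outlying arrays.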

How the results depend on the processing

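With the replicate number as a block (replicate block), 5 genes were higher and 23 lower in Th17 than in naive cells (4663 and 5627 of all genes). The counts were 6 and 28 in Th1 than in naive cells (4469 and 5702 of all genes), and 2 and 6 in Th17 than in Th1 cells (1542 and 1492). All were within 1.5 times the counts without the block. Whether the replicate numbers pair the arrays is not known. Differences of named genes that were called in the first place were followed through the alternatives. Those not called, such as those of Aldoa and Idh3g given above, are left out, so a gained call could not be counted. Of the 772 values followed, 689 kept call and direction, 81 lost the call and 2 turned sign. Both turned under normexp background correction as planned, where Pfkp was 0.10 between Th17 and Th1 cells (adjusted p 0.903) and Pdk1 was 0.048 between Th1 and naive cells (adjusted p 0.961). On Th1 replicate 2 that correction met 5 spots of very high local background and gave a median signal of 2469, beside 91.6 to 112 on the other arrays. It called 0 of the 46 genes higher and 3 lower in Th17 than in naive cells (698 and 530 of all genes), 0 and 6 in Th1 than in naive cells (719 and 543), and 0 and 1 in Th17 than in Th1 cells (69 and 109). Left out in an alternative chosen after seeing the data, those spots no longer did so, and 6 and 23, 6 and 26, and 4 and 5 of the 46 genes were called. Of all genes 4036 and 5131, 3590 and 5612, and 1568 and 1212 were then called in the same order. In that fit Pfkfb4 between Th17 and Th1 cells was -0.44 (adjusted p 0.0734).

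Asking for a 2-fold difference left 2 higher and 12 lower in Th17 than in naive cells (2264 and 1975 of all genes), 3 and 10 in Th1 than in naive cells (2213 and 1736), and 0 and 3 in Th17 than in Th1 cells (587 and 634). With slide as a block Th17 cells had 3 higher and 11 lower than naive cells (2746 and 2498 of all genes) and 0 higher than Th1 cells; within slide 1, 3350 of all genes were lower in Th1 than in naive cells; within slide 2, 0 and 2 of the 46 genes (728 and 692 of all genes) were higher and lower in Th17 than in Th1 cells. Without a filter on dim probes 0 and 3 of 49 genes were higher and lower in Th17 than in Th1 cells (1021 and 1013 of all 32332 genes). With only probes above background on all arrays 5 of 42 were higher (1485 of all 15806 genes). The cause was not tested. Leaving out 1 array gave 5 to 6 higher and 20 to 23 lower in Th17 than in naive cells (4035 to 4641 and 4774 to 5523 of all genes), 6 to 7 and 25 to 27 in Th1 than in naive cells (3813 to 4225 and 4800 to 5557), and 0 to 3 and 3 to 6 in Th17 than in Th1 cells (1017 to 1355 and 908 to 1218). Scaling by detected probes gave an all-gene median of 0.055 in Th1 minus naive, against -0.09, and moved the share of calls that were higher to 55.1%, against 43.6%; it was 51.4% against 45.1% in Th17 minus naive and 41.5% against 52.3% in Th17 minus Th1. The number of arrays and dim signals limit what small differences can be called.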
